A study of Mus musculus with 16 samples.

Results

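The 10 genes described here move fatty acids into the liver, bind them there or respond to them, and were followed in mice fed little or much fat. They were listed by name, as genes of fatty acid uptake and of PPAR gamma. The list uses no measured value, but it was made with earlier results of these data known. They comprise Cd36, the fatty acid transport protein genes Slc27a2, Slc27a4 and Slc27a5, the fatty acid binding protein genes Fabp1, Fabp2 and Fabp4, the lipoprotein genes Lpl and Vldlr, and Pparg, which encodes the nuclear receptor PPAR gamma. These are 10 of the 78317 genes listed in the deposited tables and 10 of the 14781 genes with enough counts to be tested, so none of them was lost to the filter on low counts.

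The study sequenced poly(A) RNA from whole liver of female and male C57BL/6J mice of genotype wt, with 4 libraries in each of 4 groups and 16 in all. The mice were 6 weeks old on arrival and then ate 1 of 2 diets for 10 weeks. By the submitters' description, fat supplied 4.5% of the calories in the normal diet (LabDiet 5053) and 60% in the high fat diet (Research Diets D12492). The diets came from different makers and can differ in more than fat, and the labels give all libraries the same batch number, 1. The labels number the replicates within a group without stating that each is a separate animal, so p-values measure the spread between these libraries.

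Fatty acids reach the hepatocyte either free in plasma, where CD36 and the transport proteins of the SLC27 family help them across the membrane, or inside triglyceride-rich lipoproteins, from which lipoprotein lipase releases them and whose particles the VLDL receptor can bind. Inside the cell, small binding proteins carry them to enzymes, membranes and the nucleus. PPAR gamma binds fatty acid ligands, pairs with a retinoid X receptor on DNA and is known as the main receptor of fat cell formation. It is normally scarce in liver and is known to be more abundant in fatty liver, where Cd36 and several lipid droplet genes are among its targets.

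The libraries held 22228115 to 41420589 expected counts, and sex-linked transcripts matched the labelled sex in 16 of 16 libraries. A list of 6 hepatocyte markers was abundant in every library. With the high fat diet, 1 of the 6 fell in females (Hnf4a), 3 fell in males (Alb, Serpina1a and Hnf4a) and 0 rose in either sex. Cyp2e1 had a higher mean in males with that diet (11421 against 8959 CPM) and was not called. The summed level of the list, most of which is Alb, in counts scaled to a common library size (CPM), was 108598 to 123338 in females fed the normal diet and 85465 to 100772 in those fed the high fat diet. In males it was 88387 to 96054 CPM and 60304 to 83315 CPM. In whole tissue, fewer cells of a type and less RNA per cell cannot be told apart. Male high fat diet replicates 2 and 3 were closer to each other than any other pair of libraries in a group. Their chi-square statistic was 4.00 per gene. Other pairs of that group had 54.5 at the least and 306.5 at the most. The called diet changes of the 10 genes in males are therefore also given with these 2 libraries averaged into 1.

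Per transcript length, the 10 genes spanned a wide range of levels. TPM, a length-scaled share of transcripts and the unit used here for levels between genes, placed Fabp1 first in every group, with a mean of 16310 ± 3457 (SD, n = 4) in females given the normal diet and 16380.0 ± 4946 in females given the high fat diet. The males had 16310.4 ± 2580.0 and 10754 ± 2634 TPM of it. After it came Slc27a2, at 795 to 841 TPM over the group means, Slc27a5 at 477 to 562, Fabp2 at 101 to 342, Cd36 at 30.3 to 108 and Fabp4 at 15.5 to 20.5. This order held in all 4 groups. Slc27a4, Pparg and Lpl followed in an order that changed between groups, with group means from 3.54 to 15.0 TPM, and Vldlr was last in each, at 0.140 to 3.72 TPM. Neighbours in this order overlapped between libraries for Slc27a2 and Slc27a5 in females on the normal diet, for Slc27a5 and Fabp2 in females on the high fat diet, and for Fabp2 and Cd36 in males on the high fat diet. Some neighbours among Fabp4, Slc27a4, Pparg and Lpl overlapped in every group, and Fabp1 overlapped no other gene in any group.

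**Figure D1:**
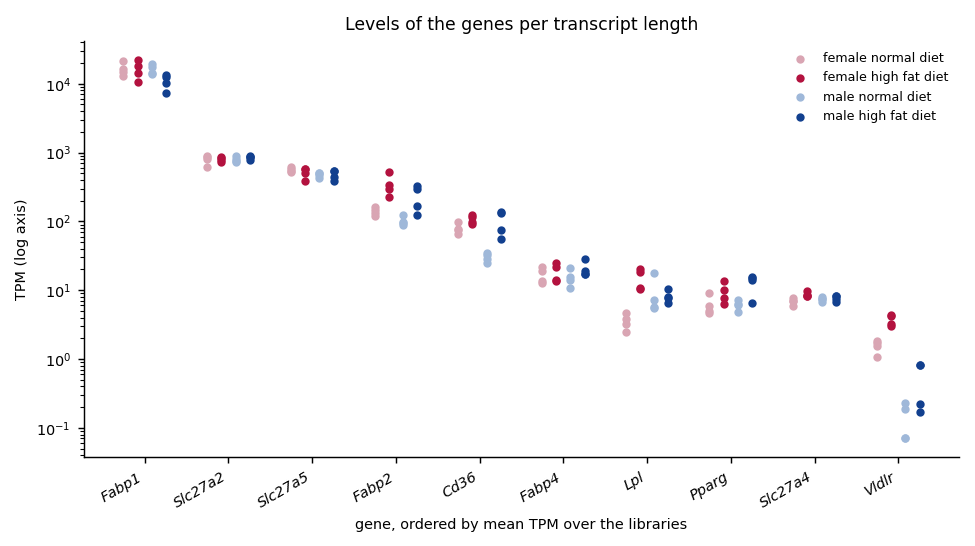
Level of each gene in TPM on a log axis, with 1 point per library and the groups in separate colours, genes being ordered by their mean. Fabp1 lies above all other genes in every group and Vldlr has the lowest mean in each, while Lpl, Pparg and Slc27a4 lie close together.

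With 10 genes examined, the high fat diet was followed by called changes in a minority, all of them rises. Calls rest on edgeR's quasi-likelihood test, with an adjusted p under 0.05 over all tested genes. In females 2 of 10 genes rose (Lpl and Fabp2) and 0 fell, where 5.74% of all tested genes rose and 5.76% fell. In males 4 of 10 rose (Cd36, Vldlr, Fabp2 and Pparg) and 0 fell, against 6.03% and 5.36% of all tested genes. Groups did not overlap for 4 of 10 genes in females, where 18.3% of all tested genes did not overlap, and for 3 of 10 in males, where 18.5% did not. The median log2 change of the 10 genes was 0.15 in females and 0.16 in males, beside 0.00 and 0.01 over all tested genes.

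**Figure D2:**
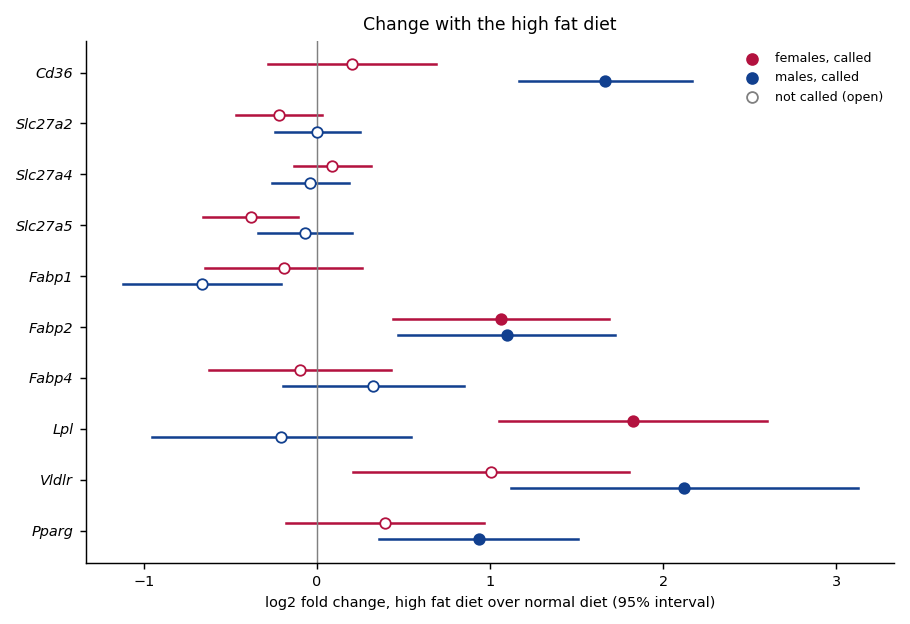
Log2 fold change on the high fat diet against the normal diet for each gene in females and in males, with 95% intervals; filled points are called. The filled points are Lpl and Fabp2 in females and Cd36, Fabp2, Vldlr and Pparg in males, all to the right of 0.

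Windows of reference sequence around transcription starts were searched for the DNA motif of nuclear receptors, since PPAR gamma binds 2 such motifs in a row. The windows cover 250 bases before to 50 after a start (RefSeq, GRCm38.p6) and exist for 7 of the 10 genes: Cd36, Slc27a2, Slc27a4, Fabp1, Fabp2, Pparg and Vldlr, in 10 windows. Slc27a5, Fabp4 and Lpl had no entry. The motif AGGTCA was found on either strand in 5 of 10 windows, from 4 genes, and in 16.3% of all 32851 windows of this length. A stricter pattern, 2 copies of AGGNCA in the same direction with 1 base between them, was found in the Fabp1 window alone among these and in 0.381% of all windows. Its first copy on the printed strand overlaps an AGGTCA match. The matches below are printed along the transcribed strand with 20 bases on each side and the motif in capitals; in the first 3 the motif reads on the opposite strand, as TGACCT. They are shown because Cd36, Pparg and Fabp1 are 3 of the genes described next, with Slc27a2 beside them. Of these 4 genes, Fabp1 and Slc27a2 were not called in any comparison by edgeR. A match describes letters in a window and shows no binding.
Cd36, minus strand, chr5:17836099-17836144, motif starting 228 bases before the start: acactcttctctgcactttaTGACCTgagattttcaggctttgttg
Slc27a2, plus strand, chr2:126552784-126552829, motif starting 220 bases before the start: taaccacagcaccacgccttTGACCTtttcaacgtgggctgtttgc
Fabp1, plus strand, chr6:71199792-71199844, repeat starting 67 bases before the start: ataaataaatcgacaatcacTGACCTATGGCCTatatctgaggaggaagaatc
Pparg, plus strand, chr6:115361096-115361141, motif starting 28 bases before 1 of its starts: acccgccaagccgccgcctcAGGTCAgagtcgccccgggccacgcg

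Cd36, the membrane protein that speeds uptake of long-chain fatty acids, rose on the high fat diet in males, from a level below that of females on the normal diet. In males on the normal diet the 4 libraries, in replicate order, held 58.1, 75.5, 70.0 and 63.0 CPM of Cd36. High fat diet libraries held 117, 288, 289.7 and 151 CPM. The 2 diets did not overlap in males, the high fat diet being higher throughout, and replicates 2 and 3, the close pair, were the highest. The rise was 3.17-fold (log2 1.66 ± 0.24 SE, adjusted p = 0.000326). With the close pair averaged it was 1.47 on the log2 scale (adjusted p = 0.00106). Macrophages and endothelial cells also express Cd36. In males the macrophage and Kupffer cell list summed to 252 to 393 CPM on the normal diet and 224 to 447 CPM on the high fat diet, with 1 of 8 genes rising, and the endothelial list to 113 to 143 CPM and 130 to 150 CPM, with 0 of 6 called. The lipid-associated macrophage list of 5 genes summed to 10.4 to 19.3 CPM and 16.9 to 25.9 CPM in males, with 3 genes rising (Trem2, Gpnmb and Mmp12) and 1 falling (Cd9). The part of these cells in the rise was not tested.

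Females carried Cd36 at 153, 179, 200.1 and 161 CPM on the normal diet and at 185, 166, 243 and 205 CPM on the high fat diet. Their 2 diet groups overlapped, and the log2 difference of 0.20 ± 0.23 was not called (95% interval -0.28 to 0.69, adjusted p = 0.61). On the normal diet, Cd36 was 2.60-fold higher in females than in males, with no overlap (log2 1.38 ± 0.23, adjusted p = 0.00102). On the high fat diet the sexes overlapped and differed by -0.08 ± 0.23 (95% interval -0.57 to 0.40, adjusted p = 0.824). Cd36 is a known case of a gene expressed more in female than in male rodent liver.

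The test of the difference between the 2 diet changes of Cd36 gave -1.46 ± 0.33 (females minus males), with an adjusted p of 0.0511, and so was not called. It was called without male high fat diet replicate 1 (adjusted p = 0.00528), without replicate 4 of that group (0.0358), with a replicate block (0.0292) and with DESeq2 (0.00183), 4 of the 23 alternative settings; over all of them the adjusted p reached 0.137.

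**Figure D3:**
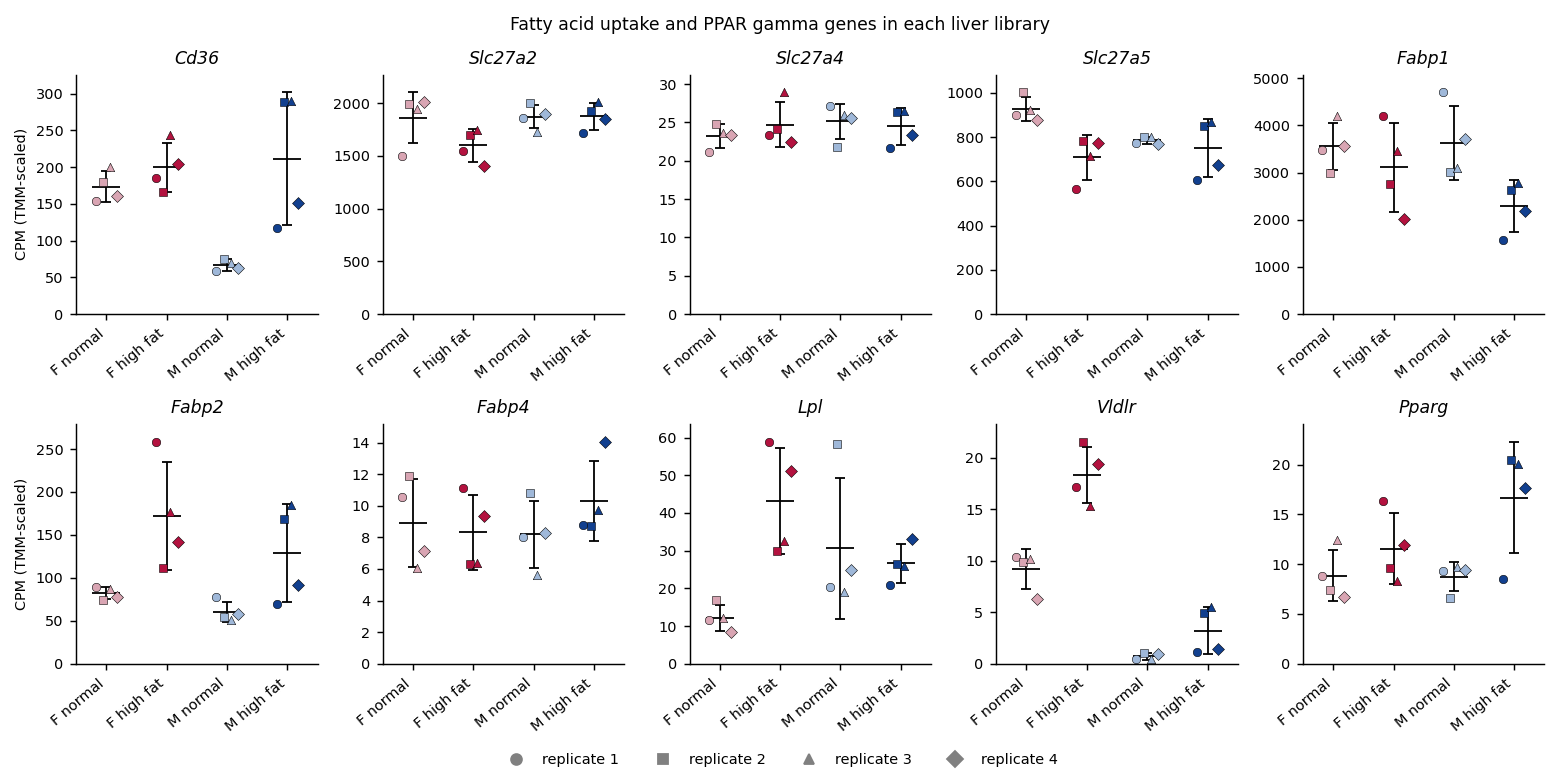
CPM of each gene in every library, with 1 panel per gene, 1 column per group, symbols for the 4 replicates and a bar with whiskers for the group mean ± SD. Cd36 and Vldlr separate the sexes on the normal diet, Lpl separates the diets in females, and replicates 2 and 3 of males on the high fat diet lie together.

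Lipoprotein lipase, encoded by Lpl, splits triglycerides of circulating lipoproteins at the vessel wall and is known to be low in adult liver. In females its level was 11.5, 16.8, 12.0 and 8.31 CPM on the normal diet and 58.8, 29.9, 32.6 and 51.1 CPM on the high fat diet. The lowest high fat diet library stood above the highest normal diet one, and replicates 1 and 4 were the highest. The rise was 3.54-fold (log2 1.83 ± 0.36, adjusted p = 0.00625), and it was called in all 15 alternative settings.

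A list of 5 lipid-associated macrophage markers had a summed level of 31.0, 13.3, 13.5 and 26.8 CPM in the female high fat diet libraries, in replicate order. On the female normal diet it ran from 11.5 to 13.4 CPM, and 3 of its 5 genes (Gpnmb, Mmp12 and Itgax) rose in females while 0 fell. A list of 8 macrophage and Kupffer cell markers summed to 270.5 to 391 CPM on the normal diet and 448 to 652 CPM on the high fat diet in females, with 3 of 8 genes rising and 0 falling. Macrophages are known to express Lpl, and the part of these cells in its rise was not tested. Muscle markers, from another tissue rich in Lpl, summed to at most 1.04 CPM in any library.

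In males the change of Lpl was not called. Of the same 5 lipid-associated macrophage markers, 3 rose there and 1 fell. Lpl levels in males were 20.3, 58.3, 19.0 and 24.8 CPM on the normal diet and 20.8, 26.5, 25.9 and 33.2 CPM on the high fat diet. Apart from replicate 2 on the normal diet, which was far above the other 3, the male libraries lay within a narrow range. The log2 difference was -0.21 ± 0.35 (95% interval -0.95 to 0.54, adjusted p = 0.75).

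On the normal diet Lpl was 2.52-fold lower in females than in males, with no overlap (log2 -1.34 ± 0.36, adjusted p = 0.0222). Without male normal diet replicate 2 the difference was -0.81 (adjusted p = 0.0483). The call was lost on leaving out replicate 1, 3 or 4 of females on the normal diet, with adjusted p of 0.0629, 0.0531 and 0.062, and without the filter on low counts (0.0628) or the other groups in the fit (0.0679). On the high fat diet the sex difference was 0.70 ± 0.35 (95% interval -0.05 to 1.45, adjusted p = 0.17). The difference between the diet changes of females and males was 2.03 ± 0.50 and was not called (adjusted p = 0.0886); DESeq2 called it (0.000911).

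Vldlr, the receptor that binds and takes up triglyceride-rich particles, had the lowest level of the 10 genes and the largest difference between the sexes. On the normal diet females held 10.4, 9.84, 10.1 and 6.28 CPM, and males 0.453, 1.03, 0.432 and 0.947 CPM. On the high fat diet females held 17.2, 21.5, 15.3 and 19.3 CPM, and males 1.11, 4.89, 5.46 and 1.42 CPM. Every female library stood above every male library on the same diet, and every high fat diet library stood above every normal diet library of the same sex in CPM. In TPM the male diet groups overlapped, at 0.07, 0.19, 0.07 and 0.23 on the normal diet and 0.17, 0.83, 0.82 and 0.22 on the high fat diet.

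In males the rise of Vldlr on the high fat diet was 4.35-fold (log2 2.12 ± 0.47, adjusted p = 0.0097), and with the close pair averaged it was 1.80 on the log2 scale (0.0318). It rests on low counts, down to 10 in 1 male library. On the log2(TPM + 1) scale, where a low gene's change is understated, it was 0.38 and not called (adjusted p = 0.15), and with a pseudocount of 0.1 it was 1.19 (0.0574). In females the difference was 2.01-fold (log2 1.00 ± 0.37, 95% interval 0.21 to 1.80) and was not called (adjusted p = 0.0946), although the groups did not overlap. It was called with the female libraries alone (0.00369) and on both TPM scales (0.0018 and 0.0324). On those scales the median of all genes was itself shifted by 0.15 and 0.22 in females. The 2 diet changes differed by -1.12 ± 0.60 (adjusted p = 0.464).

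The higher level of Vldlr in females was called on both diets. It was 12.2-fold on the normal diet (log2 3.61 ± 0.46, adjusted p = 0.000126) and 5.62-fold on the high fat diet (log2 2.49 ± 0.40, adjusted p = 0.000778). Both calls held in every alternative setting, 15 on the normal diet and 16 on the high fat diet.

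Over the 10 genes, 2 were higher in females on the normal diet (Cd36 and Vldlr) and 1 was lower (Lpl), where 7.03% and 8.68% of all tested genes were. Groups did not overlap for 4 of the 10 genes, against 22% of all tested genes. On the high fat diet 1 gene was higher in females (Vldlr) and 0 were lower, against 8.84% and 11.6%, and groups did not overlap for that 1 gene, against 22.7%. The comparisons on 1 diet share their libraries with the diet comparisons.

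**Figure D4:**
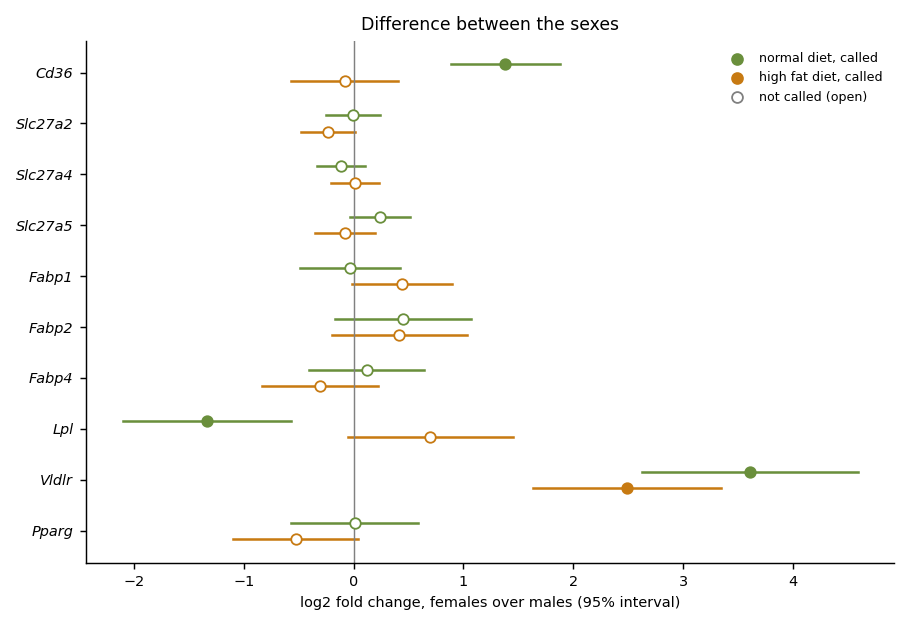
Log2 fold change of females over males for each gene on the normal and on the high fat diet, with 95% intervals; filled points are called. Vldlr lies far to the right on both diets, while Cd36 to the right and Lpl to the left are filled on the normal diet alone.

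The 3 transport proteins of the SLC27 family, which also activate fatty acids or bile acids with coenzyme A, were called in 0 of the 15 comparisons made over them. Slc27a2 encodes a very long-chain acyl-CoA synthetase of liver and kidney. It ranged from 1402 to 2013 CPM over the 16 libraries, and its diet differences were -0.22 ± 0.12 in females (95% interval -0.47 to 0.03, adjusted p = 0.239) and 0.00 ± 0.12 in males (-0.24 to 0.25, adjusted p = 0.991). An antisense gene overlaps Slc27a2, and counting is not stated to have used the strand. Slc27a4, a broadly expressed long-chain acyl-CoA synthetase, ranged from 21.2 to 28.9 CPM. Its diet differences were 0.09 ± 0.11 in females (-0.13 to 0.31) and -0.04 ± 0.11 in males (-0.26 to 0.18). On the TPM scales the female difference of Slc27a4 was called (adjusted p = 0.0386 and 0.0413), where the median of all genes was itself shifted by 0.15 and 0.22 on the log2 scale.

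Slc27a5 encodes a liver enzyme that returns bile acids to their coenzyme A form and takes part in fatty acid uptake. Females held 901, 1003, 922 and 877 CPM on the normal diet and 565, 784, 715 and 774 CPM on the high fat diet. All 4 high fat diet libraries were below all 4 normal diet libraries, but the log2 difference of -0.38 ± 0.13 was not called (95% interval -0.66 to -0.11, adjusted p = 0.0627). DESeq2 (0.0263) and the replicate block (0.0372) called it. In males the diet groups overlapped, at 771 to 801 CPM and 605 to 869 CPM, and differed by -0.07 ± 0.13 (-0.34 to 0.20). On the normal diet all 4 female libraries lay above all 4 male libraries, with a difference of 0.24 ± 0.13 that was not called (adjusted p = 0.231).

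Among the binding proteins, Fabp2 rose on the high fat diet in both sexes. Its product is known as the intestinal fatty acid binding protein, and it is also transcribed in mouse liver. In females its level was 89.6, 74.7, 87.2 and 77.7 CPM on the normal diet and 258, 112, 177 and 142 CPM on the high fat diet. In males it was 77.8, 53.9, 51.1 and 58.4 CPM and 69.7, 169, 185 and 91.3 CPM. The female groups did not overlap, whereas male high fat diet replicate 1 fell below the highest normal diet library.

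The rise of Fabp2 was 2.09-fold in females (log2 1.06 ± 0.29, adjusted p = 0.0302) and 2.14-fold in males (log2 1.10 ± 0.29, adjusted p = 0.0258). The 2 changes differed by -0.03 ± 0.41 (95% interval -0.90 to 0.84, adjusted p = 0.986). Both calls lay near the threshold. In females the call was lost in 8 of 15 settings, with an adjusted p of up to 0.0981; these were no filter, the replicate block (0.0547), and leaving out any 1 of the 4 normal diet libraries or high fat diet replicate 1 or 3. The smallest change, 0.80, came without high fat diet replicate 1. In males it was lost in 8 of 16 settings, with an adjusted p of up to 0.0898; these were no filter, the 2 groups fitted alone, leaving out normal diet replicate 2, 3 or 4 or high fat diet replicate 2 or 3, and averaging that close pair (log2 0.90, adjusted p = 0.0845). Markers of enterocytes, the cells best known for Fabp2, summed to at most 0.599 CPM in any library, and Alpi, Lct, Sis and Cdx2 were at 0 counts in all of them.

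Fabp1, the abundant liver fatty acid binding protein, was lower in males on the high fat diet without being called. Its male libraries held 4701, 3012, 3088 and 3712 CPM on the normal diet and 1559, 2637, 2782 and 2176 CPM on the high fat diet. The groups did not overlap, and replicate 1 was the lowest. The log2 difference was -0.67 ± 0.22 (95% interval -1.12 to -0.21, adjusted p = 0.0556), and DESeq2 called it (0.0186). With the close pair averaged it was -0.76 (0.061). In females the groups overlapped, at 2988 to 4206 CPM and 2014 to 4205 CPM, and differed by -0.19 ± 0.22 (-0.65 to 0.26, adjusted p = 0.606). Of the hepatocyte markers, 3 of 6 fell in males and 0 rose. The part of that shift in the Fabp1 difference was not tested.

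Fabp4, the binding protein of adipocytes and macrophages, was low, at 5.62 to 14.0 CPM over all libraries, and was called in 0 of 5 comparisons. Its diet differences were -0.10 ± 0.25 in females (95% interval -0.62 to 0.43) and 0.33 ± 0.25 in males (-0.20 to 0.85). Adipocyte markers were near 0: Adipoq reached at most 1.46 CPM, Plin1 0.596, Lep 0.241 and Retn 0.215. Cfd, the fifth of that list, rose in males and held 0.372, 9.64, 10.2 and 3.76 CPM on the high fat diet.

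Pparg rose on the high fat diet in males, and this call too lay near the threshold. Male libraries held 9.35, 6.59, 9.68 and 9.42 CPM on the normal diet and 8.51, 20.5, 20.1 and 17.7 CPM on the high fat diet. Replicate 1 on the high fat diet stayed within the normal diet range, and the other 3 were above it. The rise was 1.91-fold (log2 0.93 ± 0.27, adjusted p = 0.0353). It was called in 6 of 16 other settings, with an adjusted p of up to 0.116. The call was lost on leaving out any 1 library of these 2 groups except high fat diet replicate 1, with log2 values of 0.81 and above. It was also lost with no filter, with the replicate block (0.0617) and with the close pair averaged (log2 0.82, adjusted p = 0.0991).

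In females Pparg stood at 8.79, 7.42, 12.5 and 6.69 CPM on the normal diet and at 16.4, 9.63, 8.26 and 12.0 CPM on the high fat diet. These groups overlapped, and the difference of 0.39 ± 0.27 was not called (95% interval -0.18 to 0.97, adjusted p = 0.372). The diet changes of the sexes differed by -0.54 ± 0.38 (adjusted p = 0.598). On the high fat diet females were lower than males by a log2 value of -0.53 ± 0.27, which was not called (adjusted p = 0.171); it was called without male high fat diet replicate 1, at -0.72 (0.0383).

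Across all 10 genes the interaction of sex and diet was called for 0 in either direction by edgeR, where the female change less the male one was called above 0 for 0.264% of all tested genes and below 0 for 0.413%. At an unadjusted p under 0.05 there were 2 such genes, and DESeq2 called 2. In males on the high fat diet, 8 of the 10 genes (all but Fabp4 and Lpl) had their 2 highest libraries in replicates 2 and 3, as had 27.2% of all tested genes.

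A list of known PPAR gamma targets, chosen with earlier results of these data known, showed called rises in males and called falls in females. It leaves out the 10 genes themselves, among them Cd36, Lpl and Fabp4, and also Angptl4, which stands on another related list. Of 13 target genes listed, chiefly of lipid droplets, 11 were tested. In males 7 rose and 0 fell, where 6.03% of all tested genes rose and 5.36% fell, and the median log2 change over the 11 genes was 1.34. In females 0 rose and 3 fell, where 5.74% of all tested genes rose and 5.76% fell, and the median was -0.20. The rises were those of Mogat1, Pdk4, Cidec, Cidea, Plin2, Plin4 and G0s2, and the falls were those of Plin4, Plin5 and Fitm2. Between the sexes, 6 of the 11 were lower in females and 0 were higher, with the high fat diet fed to both, where 11.6% of all tested genes were lower and 8.84% higher. Of these 6, Plin2 was called in 2 of 16 alternative settings. Mogat1 was called in 11 of 16 (adjusted p up to 0.0686; lost without filter, without female replicate 1 or 4 or male replicate 2, and with the close pair averaged). Fitm2 was called in 13 of 16 (up to 0.0528; lost without female replicate 1 and on both TPM scales). The interaction was called for 1 of the 11. Adipocytes express most of these genes, and the summed level of 5 adipocyte markers was 0.966, 10.6, 10.9 and 5.80 CPM in males fed the high fat diet and at most 2.97 CPM in the other groups, most of it Cfd in replicates 2 to 4. Some pancreatic acinar markers also appeared in the close pair. Pnlip was at 8.18 and 3.54 CPM and Ctrb1 at 4.04 and 1.68 CPM in male high fat diet replicates 2 and 3. Both were at 0 in replicates 1 and 4. Prss2 and Cpa1 were also highest in the close pair. Cela1, the 1 tested gene of these 5 markers, held 16.4, 13.5, 12.2 and 12.3 CPM in this group, with replicate 1 highest. Outside this group, Pnlip was above 0 in female normal diet replicate 4 alone, at 1.57 CPM. Ctrb1 was at 0.684 CPM in that library and at 0.228 CPM in male normal diet replicate 2. The part of such cells in the male rises was not tested.

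Cidec, which helps lipid droplets fuse, held 3.91, 3.80, 3.02 and 5.49 CPM in male livers with the normal diet and 6.61, 22.4, 26.9 and 11.5 CPM with the high fat diet. The groups did not overlap, and the rise was 4.13-fold (log2 2.05 ± 0.42, adjusted p = 0.0059). Mogat1, an enzyme that makes diacylglycerol, went from 0.618, 0.0856, 0.432 and 0.812 CPM to 2.16, 5.60, 4.02 and 3.05 CPM in males (log2 2.92 ± 0.52, adjusted p = 0.00163). Pdk4, a kinase that restrains pyruvate oxidation and also answers to PPAR alpha and fasting, held 3.71, 2.88, 2.98 and 3.44 CPM in males fed the normal diet and 26.6, 19.4, 21.8 and 14.8 CPM in the high fat diet ones. Its rise was 6.36-fold (log2 2.67 ± 0.52, adjusted p = 0.00548). All 3 calls held in each of 16 settings. The size of the Mogat1 rise rests on low levels, and its log2 value ranged from 1.87 to 3.35 over those settings.

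Plin4, a lipid droplet coat protein, moved in opposite directions. In females it held 16.2, 8.43, 7.54 and 5.24 CPM on the normal diet and 3.96, 2.75, 4.04 and 1.49 CPM on the high fat diet (log2 -1.60 ± 0.41, adjusted p = 0.0222). In males it held 16.6, 12.7, 15.8 and 11.5 CPM and 17.5, 46.5, 48.7 and 30.4 CPM (log2 1.34 ± 0.37, adjusted p = 0.0323). The groups did not overlap in either sex, and the difference between the changes was called (log2 -2.94 ± 0.55, adjusted p = 0.0251). The male call held in 7 of 16 settings (adjusted p up to 0.0899; it was lost with no filter, on leaving out any male library but high fat diet replicate 1, and with the close pair averaged). The female call held in 10 of 15 (up to 0.0665; lost with no filter, on the log2(TPM + 1) scale, and without normal diet replicate 1 or high fat diet replicate 2 or 4). The interaction held in 14 of 23 (up to 0.0626; lost with no filter, without female normal diet replicate 2, replicate 1 or 2 of females on high fat, replicate 2 or 4 of males on normal diet, replicate 2 or 3 of males on high fat, and with that pair averaged).

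Plin5, a droplet protein of oxidative tissues, fell in females (log2 -1.02 ± 0.24, adjusted p = 0.0114), from 31.5 to 40.9 CPM down to 9.14 to 23.9 CPM. The fall of Fitm2, a protein of droplet formation, in females (log2 -0.73 ± 0.20, adjusted p = 0.0266) was called in 6 of 15 settings (up to 0.122; lost with no filter, with the 2 groups fitted alone, on both TPM scales, and without normal diet replicate 2, 3 or 4 or high fat diet replicate 1 or 4). The rise of Plin2, another droplet coat protein, in males (log2 0.81 ± 0.21, adjusted p = 0.0161) was lost on leaving out normal diet replicate 1 (0.0566).

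**Figure D5:**
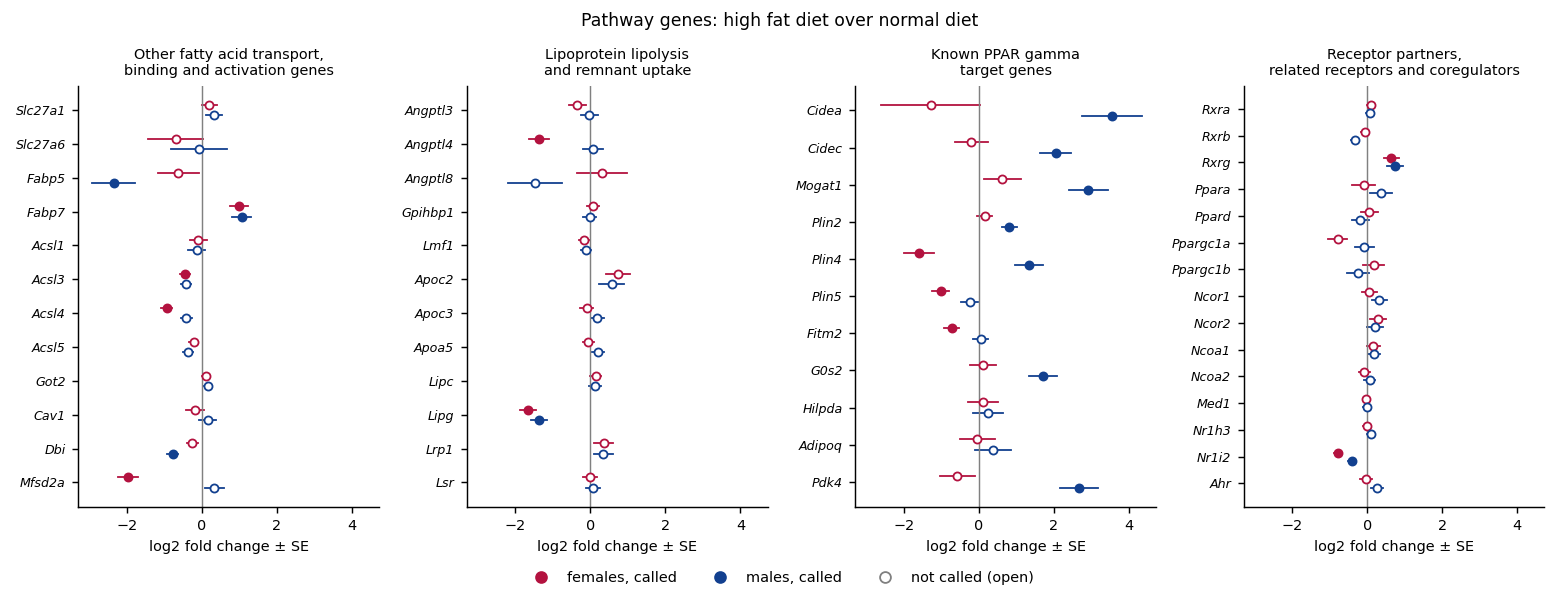
Log2 fold change on the high fat diet in females and in males for tested genes of the 4 related lists, with 1 panel per list, whiskers for ± SE and filled points for called genes. In the PPAR gamma target panel the 7 filled male points lie to the right of 0 and the 3 filled female points to the left.

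Other genes of fatty acid transport, binding and activation were called in both directions. Of 12 tested out of 16 listed, 1 rose and 3 fell in females, where 5.74% of all tested genes rose and 5.76% fell. In males 1 rose and 2 fell, against 6.03% and 5.36% of all tested genes. The medians were -0.24 in females and -0.11 in males, beside 0.00 and 0.01 over all tested genes. Mfsd2a, a transporter of lysophosphatidylcholine that carries long-chain fatty acids, fell in females from 83.8, 102, 102 and 126 CPM to 33.8, 32.2, 21.7 and 18.1 CPM (log2 -1.97 ± 0.26, adjusted p = 0.000283). Male libraries held 35.2 to 49.3 CPM of it with the normal diet and 31.9 to 69.1 CPM with the high fat diet, and its interaction was called in all 23 alternative settings (adjusted p up to 0.028). Acsl4, which activates arachidonic acid, fell in females (log2 -0.95 ± 0.15, adjusted p = 0.000762). Fabp7, known as the brain binding protein, rose in both sexes, by 0.98 ± 0.25 in females (adjusted p = 0.0163) and 1.06 ± 0.26 in males (adjusted p = 0.0129). The female call was lost without high fat diet replicate 4 (0.0525).

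In males Dbi, which binds acyl-CoA, fell by 0.78 ± 0.15 on the log2 scale (adjusted p = 0.00327). Fabp5, the epidermal binding protein, fell by 2.35 ± 0.58 (adjusted p = 0.02), from 46.5, 60.2, 30.7 and 41.8 CPM to 19.2, 2.78, 3.40 and 9.92 CPM. The lowest 2 libraries were the close pair, and the call was lost in 3 of 16 settings (the 2 groups fitted alone, without high fat diet replicate 3, and with the pair averaged; up to 0.0642).

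Of 13 genes of lipoprotein lipolysis and remnant uptake, all tested, 0 rose and 2 fell in females, where 5.74% of all tested genes rose and 5.76% fell. In males 0 rose and 2 fell, against 6.03% and 5.36% of all tested genes. The median log2 changes were -0.06 in females and 0.06 in males. Lipg, endothelial lipase, fell in both, from 33.0, 54.1, 45.9 and 42.1 CPM to 10.6, 14.3, 17.5 and 12.9 CPM in females (log2 -1.66 ± 0.21, adjusted p = 0.000144) and by 1.38 ± 0.21 on the log2 scale in males (adjusted p = 0.000635). Angptl4, a secreted inhibitor of lipoprotein lipase, fell in females from 76.1, 168, 148 and 153 CPM to 42.4, 64.6, 72.9 and 31.4 CPM (log2 -1.37 ± 0.28, adjusted p = 0.00578).

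Among 15 receptor partners, related receptors and coregulators, 1 rose and 1 fell in each sex, a share near that of all tested genes (5.74% and 5.76% in females, 6.03% and 5.36% in males), with medians of -0.01 in females and 0.07 in males. Rxrg, a retinoid X receptor that can pair with PPAR gamma, rose by 0.64 ± 0.20 in females (adjusted p = 0.0448) and by 0.75 ± 0.21 in males (adjusted p = 0.0257). Its levels were 3.19 to 5.02 CPM on the normal diet and 5.42 to 7.64 CPM on the high fat diet in females, and 2.31 to 3.28 CPM and 3.34 to 5.57 CPM in males, without overlap. The female call held in 6 of 15 settings (up to 0.127; lost with the replicate block, with no filter, with the 2 groups fitted alone, and without normal diet replicate 1, 2 or 3 or high fat diet replicate 1, 2 or 4) and the male call in 10 of 16 (up to 0.0869; lost without normal diet replicate 1, 2 or 3 or high fat diet replicate 2 or 3, and with that pair averaged). Nr1i2, the xenobiotic receptor PXR, fell in females (log2 -0.79 ± 0.10, adjusted p = 0.000109) and in males (log2 -0.41 ± 0.10, adjusted p = 0.0143). The male call was lost on both TPM scales (up to 0.0583).

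Cd36 and Pparg were also compared with all other genes by pattern, as the root mean square difference of log2 CPM over the 16 libraries after each gene was centred on its own mean. The libraries share groups and scaling, so no p is given. Among 10648 genes, those close to Cd36 included Tpm2, a tropomyosin, at 0.309, and Endod1, an endonuclease-like protein, at 0.348, where the spread of Cd36 itself was 0.731. They were picked for this likeness, so the shared pattern is no separate result. Like Cd36, these 2 had lower mean levels in males on the normal diet than in the other groups. Tpm2 averaged 2.77 ± 0.234 CPM there (SD, n = 4) and 6.66 to 9.20 CPM elsewhere. In males on the high fat diet it held 2.90, 13.1, 14.4 and 6.33 CPM, the close pair being highest. Replicate 1 lay within the male normal diet range of 2.46 to 3.02 CPM. Closest to Pparg were Smarca4, a chromatin remodelling ATPase, at 0.291, and the predicted genes Gm48633 at 0.305 and Gm20319 at 0.316, with a spread of 0.518 for Pparg itself. Smarca4 averaged 55.3 ± 10.5 CPM in males fed the high fat diet and 29.7 to 34.8 CPM in the others.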

How the data were processed

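Per the submitters' processing notes, STAR, RSEM and the genome build GRCm39 were used; their versions, the annotation, the strand setting and the hour of collection are not given in the sources used here. The authors deposited RSEM expected counts (reads shared between genes by a likelihood model, of which 4.89% of entries lay more than 0.005 from a whole number) and TPM (length-scaled, with a fixed total per library). Symbols came from a supplied table that matched 51487 of 78317 identifiers. Expected counts were rounded and genes filtered with filterByExpr of edgeR 4.0.16 (R 4.3.3), which left 14781 genes with 99.9% of all counts. After TMM scaling, edgeR's robust quasi-likelihood test was run on the 16 libraries together, each group having its own mean. It gave 5 two-sided contrasts: diet in each sex, their difference (the female change less the male one), and the sexes on each diet (females over males). Genes were called under 0.05 after Benjamini-Hochberg adjustment across the 14781 genes. The standard error is the log2 fold change over the square root of F, and intervals are 95%. CPM is relative to the TMM-scaled library size.

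Alternatives were RLE scaling, DESeq2 1.42.0, no filter, limma 3.58.1 on log2(TPM + 1) and log2(TPM + 0.1), only the groups compared, a replicate block, each library left out in turn, and male high fat diet replicates 2 and 3 averaged. The 10 genes, the 4 related lists (57 genes, 51 tested) and the marker lists were chosen with earlier results of these data known. Of each related list, up to 3 called genes with the smallest p per sex are named, with the genes closest in pattern to Cd36 and Pparg; Cidea, Plin2, Plin4 and G0s2 in males were named after their values were seen. Some genes that these rules chose are not reported here. The design also foresaw a comparison of protein sequences, which was not made. The test was checked on simulated counts for diet in females (14569 genes): 69.7% of 2-fold and 78.9% of 4-fold changes were recovered, and 6.49% of calls were false.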

Additional observations from a re-analysis of the deposited data

Results flagged for a closer look

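In 4 of 40 sets of 4 libraries (10 genes in 4 groups), 1 library stood apart from the other 3 by Dixon's criterion at the 95% level, where chance flags about 5%. Slc27a2 was at 1502 CPM in female normal diet replicate 1, against 1942 to 2010.4 CPM in the other 3. Vldlr was at 6.28 CPM in female normal diet replicate 4, against 9.84 to 10.4 CPM. Lpl was at 58.3 CPM in male normal diet replicate 2, against 19.0 to 24.8 CPM. Pparg was at 6.59 CPM in the same male library, against 9.35 to 9.68 CPM. That library was also the highest of its group in the summed macrophage and Kupffer cell markers (393 CPM, against 252 to 291 CPM) and in the lipid-associated macrophage markers (19.3 CPM, against 10.4 to 11.7 CPM). The part of these cells in its Lpl level was not tested.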

How the results depend on the processing

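Of 50 tests (10 genes in 5 contrasts), 32 were called neither in the analysis reported nor in any alternative, and 0 called results changed direction. The calls of Cd36 and Vldlr by sex on the normal diet, Vldlr by sex on the high fat diet, Cd36 by diet in males and Lpl by diet in females held in every alternative. Counts of called genes moved as follows. For diet in females the count of 2 became 4 on both TPM scales, 1 without the filter, and 1 to 2 when 1 library was left out. On these TPM scales the median log2 change of all genes in females was itself 0.15 and 0.22. On log2(TPM + 1), 2644 genes were called higher and 282 lower in that contrast. For diet in males the count of 4 became 2 with the close pair averaged, 2 without the filter, and 2 to 4 when 1 library was left out. For the interaction the count of 0 became 2 with DESeq2, 1 with the replicate block, and 0 to 1 when 1 library was left out. For sex on the high fat diet it was 1 to 2 when 1 library was left out. Over the related lists, the 11 genes called in females became 6 to 11 when 1 library was left out, the lowest without female high fat diet replicate 4. The 2 called interactions became 7 with DESeq2, 1 with the close pair averaged, 1 without the filter, and 1 to 4 when 1 library was left out. The cause of these changes in count was not tested. The groups share replicate numbers, and whether these pair the libraries was not settled. Of 24 same-numbered pairs, 10 had deviations correlated above 0.1 (range -0.26 to 0.29, median 0.06). Differently numbered pairs ranged more widely, from -0.39 to 0.38, with a median of -0.008. Of the 16 libraries, 5 correlated best with their own number. With the replicate block, the count of all genes called went from 1700 to 1864 for diet in females. For diet in males it went from 1684 to 1980, and for the interaction from 100 to 101. Among the 10 genes, low counts limit Vldlr in males most.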
